A study of Mus musculus with 4 samples.

Results

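The RNAs described here are the small nucleolar RNAs (snoRNAs) and small Cajal body RNAs (scaRNAs) of mouse cells that had either lost Stk40, which codes for a kinase-like protein, or kept it. They were chosen by their measured levels, as the rows that the deposited table types as snoRNA or scaRNA and whose mean over the 4 libraries was at least 1 TPM (a share of all transcripts, corrected for gene length). This gave 180 members, 162 of type snoRNA and 18 of type scaRNA, out of 1559 rows of these types and 51826 genes in all. Since those TPM values selected the members, the levels are given as a description. The 2 Stk40-/- libraries (knockout) and the 2 wild-type libraries came from C57BL/6 embryonic stem cells that had 2 days of BMP4 (10 ng/ml), followed by 1 day of CHIR99021 (1 uM, an activator of Wnt signalling) in 0.5% DMSO, and were collected on day 3. Both genotypes had the same treatment, and the question put to them is what deletion of Stk40 does to the formation of mesoderm. The labels do not say whether the libraries of a genotype came from separate cultures or from more than 1 cell line, so a p-value here measures only the spread between these libraries.

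SnoRNAs guide chemical changes on ribosomal RNA. Box C/D snoRNAs carry a C box near the start and a D box near the end and direct the methylation of riboses by fibrillarin, while box H/ACA snoRNAs fold into hairpins, end in an ACA box and direct the conversion of uridine to pseudouridine by dyskerin. ScaRNAs do the same for the small nuclear RNAs of the spliceosome and collect in Cajal bodies, to which a short CAB box (TGAG in the DNA sequence) leads many of them. In mammals most of these RNAs are cut out of the introns of a host gene after splicing and are then trimmed, and the finished RNA has no poly(A) tail. Per the labels these libraries were enriched for polyadenylated RNA, so the RNAs described here are ones that the enrichment is meant to remove.

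The 4 sequences below belong to box C/D members or to members with a D box that stood among the highest and varied least between libraries. They are Gm24494 at chr3:153911610-153911690 on the minus strand, Snord19 at chr14:31016206-31016281 on the minus strand, Rnu73b at chr3:86140618-86140688 on the minus strand and Snord17 at chr2:144265979-144266216 on the minus strand (GENCODE vM21 transcripts on GRCm38). Capitals mark the C box TGATGA where it lies within the first 20 bases and the D box CTGA where it lies within the last 20.
Gm24494: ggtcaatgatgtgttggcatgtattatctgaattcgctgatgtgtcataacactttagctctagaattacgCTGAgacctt
Snord19: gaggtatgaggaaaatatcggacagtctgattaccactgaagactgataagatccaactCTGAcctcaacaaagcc
Rnu73b: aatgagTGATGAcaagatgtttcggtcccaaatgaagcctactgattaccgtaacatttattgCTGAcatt
Snord17: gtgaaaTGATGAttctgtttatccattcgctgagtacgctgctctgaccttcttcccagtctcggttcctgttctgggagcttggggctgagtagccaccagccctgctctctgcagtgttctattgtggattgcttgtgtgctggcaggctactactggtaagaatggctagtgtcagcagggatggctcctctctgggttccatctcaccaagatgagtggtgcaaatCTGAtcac

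The next sequences are 3 high members with an ACA box, Gm26397 at chr8:126944847-126944980 on the minus strand, Snora31 at chr14:75847905-75848034 on the plus strand and Snhg7 at chr2:26637847-26637985 on the minus strand, with the ACA within the last 6 bases in capitals. The row named Snhg7 is typed snoRNA and lies over Snora43 in GENCODE vM21; it is not the long host RNA of that name.
Gm26397: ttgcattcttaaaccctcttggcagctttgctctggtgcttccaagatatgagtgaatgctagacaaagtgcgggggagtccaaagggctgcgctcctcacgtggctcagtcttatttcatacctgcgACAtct
Snora31: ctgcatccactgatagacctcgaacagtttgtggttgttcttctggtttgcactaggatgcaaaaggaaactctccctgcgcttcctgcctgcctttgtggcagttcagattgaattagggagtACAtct
Snhg7: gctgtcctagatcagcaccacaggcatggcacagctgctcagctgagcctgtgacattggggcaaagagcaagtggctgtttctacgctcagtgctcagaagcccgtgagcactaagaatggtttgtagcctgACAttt

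The last pair are the scaRNAs whose levels set the wild-type libraries apart, Scarna2 at chr3:108554338-108554487 on the minus strand and Scarna13 at chr12:105031075-105031349 on the minus strand. Of Scarna2 only the last 150 bases are given. Capitals mark the D box at the end of Scarna2, and the TGAG and the ACA end of Scarna13.
Scarna2: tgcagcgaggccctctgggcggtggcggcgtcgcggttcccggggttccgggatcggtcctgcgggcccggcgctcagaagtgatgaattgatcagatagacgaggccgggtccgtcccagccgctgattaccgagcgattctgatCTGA
Scarna13: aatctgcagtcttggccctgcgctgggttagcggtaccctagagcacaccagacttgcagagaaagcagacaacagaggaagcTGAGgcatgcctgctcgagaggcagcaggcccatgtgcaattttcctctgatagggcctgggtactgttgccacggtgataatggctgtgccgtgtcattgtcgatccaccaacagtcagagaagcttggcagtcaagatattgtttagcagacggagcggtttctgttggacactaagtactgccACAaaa

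All 180 members were found by Ensembl ID among the GENCODE vM21 transcripts, and their lengths ran from 52 to 414 nt with a median of 128.5 nt. The symbol alone names 32 members as box C/D (Snord and Rnu names), 14 as box H/ACA (Snora) and 6 as Cajal body RNAs (Scarna), and the other 128 carry names such as Gm24494 that give no class. Exact letters were searched on the RNA's own strand, TGATGA in the first 20 bases with CTGA in the last 20, and ACA in the last 6. Both the C and the D box were found in 40 members (22.2%, against 20.2% of all 1559 rows), and an ACA end without that pair in 85 (47.2%, against 45.7% of all rows). Neither was found in 55 members, which says only that these letters are not in these windows. The letters TGAG occurred anywhere in 63.3% of members and in 51.7% of all rows. Of the members with a Snora name 13 of 14 had the ACA end, and of those with a Snord or Rnu name 20 of 32 had both boxes.

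Most members lay in introns. An intron of a gene on the same strand held 133 members (73.9%), against 29.2% of the 1379 rows under 1 TPM. A further 24 lay opposite an intron, 8 reached partly into an exon, 4 lay within one, and 11 had no longer gene at their position. The 145 members inside a gene of their own strand had 114 different host genes, and for 23 of them the host codes for a ribosomal protein. The host's mean level had a median of 122.4 TPM for members and 48.3 TPM for rows under 1 TPM, and the host stood at 100 TPM or more for 80 of the 145 members inside a gene (55.2%) and for 126 of the 553 such rows under 1 TPM (22.8%). Across the 145 members the level of a member and that of its host gave a Spearman rho of 0.35, a description over genes that share libraries and, in part, hosts. No source used here says whether the counting kept strands apart. Reads of an unspliced host intron, or of a host exon that covers a member, cannot be told apart from reads of the snoRNA there.

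Together the members made up 0.229% and 0.238% of all TPM in the Stk40-/- libraries and 0.221% and 0.234% in the wild-type libraries. Their summed level was 2288 and 2382 TPM in the Stk40-/- libraries and 2214 and 2344 TPM in the wild-type libraries. The 4 sums lie close together and the genotypes overlap; an exact permutation test of 2 against 2 libraries cannot give a p below 0.333. The 8 highest members held 28.8% of all member TPM and the 40 highest held 67.4%.

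Gm24494, which lies in an intron of Rabggtb (a subunit of a prenyl transferase of Rab proteins), was the highest member. It had 116 and 167 TPM in the Stk40-/- libraries and 120.2 and 176 TPM in the wild-type libraries. Library 2 was above library 1 in both genotypes, and the genotypes overlap (log2 fold change -0.06 ± 0.27 (SE) on the log2(TPM + 1) scale, adjusted p = 0.945 by limma over all 15739 genes tested). Gm26397, in an intron of Tomm20 (a receptor of mitochondrial protein import), had 79.0 and 165 TPM in the Stk40-/- libraries and 88.4 and 126 TPM in the wild-type libraries. Here the Stk40-/- libraries enclose the wild-type ones. Snord17, in an intron of Snx5 (a sorting nexin), had 59.6 and 81.9 TPM in the Stk40-/- libraries and 67.2 and 102 TPM in the wild-type libraries.

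Other box C/D members were among the least variable. Rnu73b, in an intron of the ribosomal protein gene Rps3a1, had 64.1 and 55.2 TPM in the Stk40-/- libraries and 60.9 and 51.1 TPM in the wild-type libraries. Its highest library was 1.25 times its lowest (log2 fold change 0.09 ± 0.14, limma adjusted p = 0.821). Snord19, within an exon of Gnl3 (nucleostemin, a nucleolar GTPase of stem cells), had 70.3 and 56.4 TPM in the Stk40-/- libraries and 73.5 and 57.9 TPM in the wild-type libraries (log2 fold change -0.05 ± 0.18, limma adjusted p = 0.931). For both RNAs the genotypes overlap. Reads of the Gnl3 exon cannot be told apart from reads of Snord19 within it. Snord53, in an intron of Wdr43 (a factor of small ribosomal subunit assembly), had 67.9 and 31.8 TPM in the Stk40-/- libraries and 62.2 and 60.9 TPM in the wild-type libraries, with the low value in 1 Stk40-/- library. Of the 67 members above 0 in every library only 11 stayed within a 2-fold range over the 4 libraries, and the median range was 2.95-fold.

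Of the high box H/ACA members, Snora17 had 39.5 and 31.6 TPM in the Stk40-/- libraries and 73.7 and 43.0 TPM in the wild-type libraries. The groups do not overlap, although a near-identical row, Gm25617, may share its reads. Snora31, in an intron of Tpt1 (a small, abundant protein made by growing cells), had 47.1 and 29.1 TPM in the Stk40-/- libraries and 44.2 and 23.1 TPM in the wild-type libraries, so library 1 was the higher one in both genotypes. Another high row, Gm22478, has no class in its symbol, and neither the C box, the D box nor the ACA end was found in it. It lies opposite an intron of Snrnp70 (the 70 kDa protein of the U1 snRNP). Gm22478 had 65.5 and 121 TPM in the Stk40-/- libraries and 60.6 and 48.8 TPM in the wild-type libraries. Its genotypes do not overlap, with 1 Stk40-/- library far above the rest (limma adjusted p = 0.515).

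**Figure D1:**
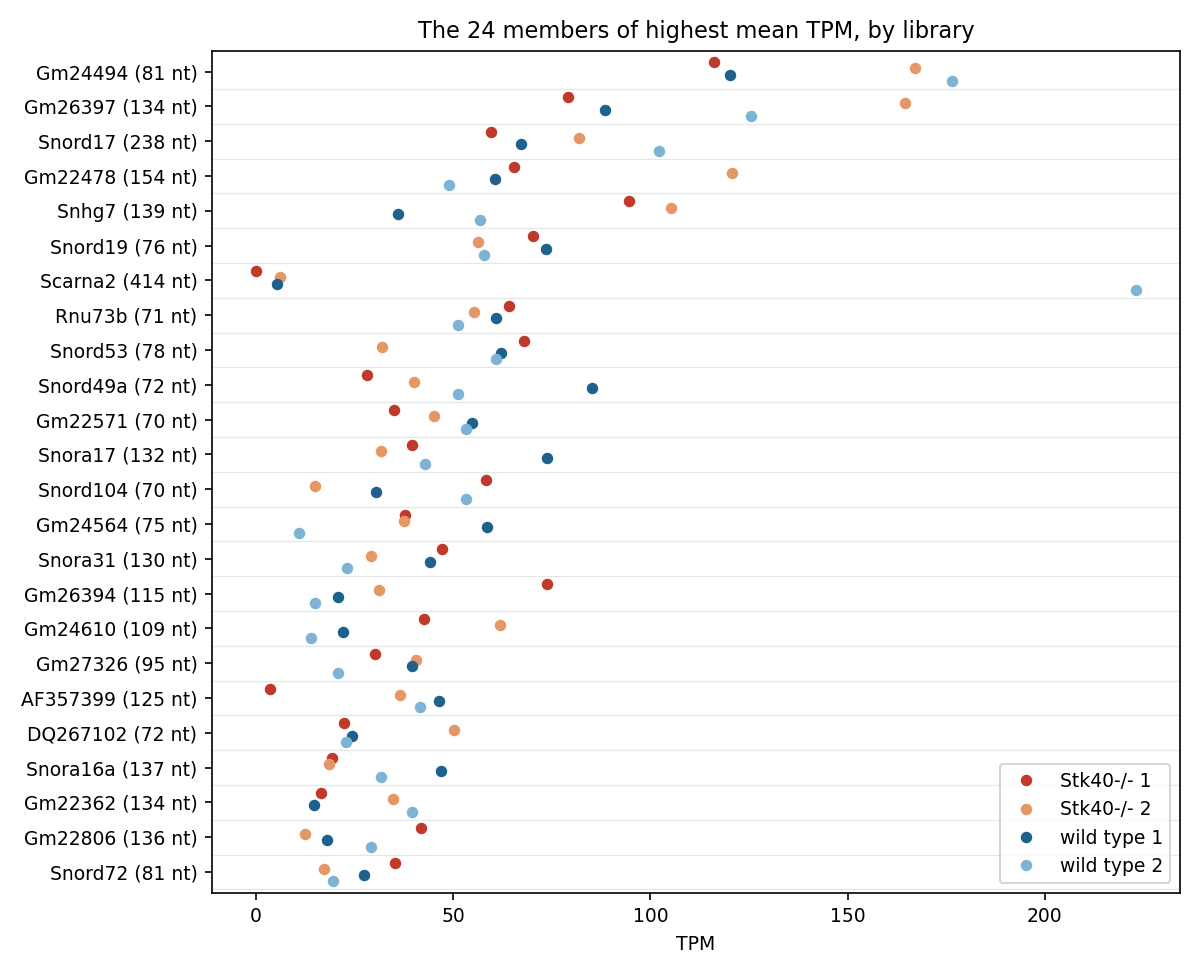
TPM of the 24 members of highest mean in each Stk40-/- library (red and orange) and each wild-type library (dark and light blue), with gene lengths in brackets. Most members have overlapping genotypes, Gm24494 is highest in library 2 of both genotypes, and Scarna2 stands at 223 TPM in wild-type library 2 and at no more than 6.13 TPM in any other library.

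Most members were listed at 0 somewhere. There were 67 members above 0 in all 4 libraries, 36 in 3 of them, 36 in 2 and 41 in 1. The numbers above 0 per library were 131 and 124 in the Stk40-/- libraries and 114 and 120 in the wild-type libraries. Of the 41 seen in a single library, 15 and 10 were seen only in Stk40-/- library 1 and library 2, and 7 and 9 only in wild-type library 1 and library 2. These passed the threshold through that library alone, so their difference from the others comes with the choice. Rnu3a, a copy of the U3 RNA that every growing cell uses to process ribosomal RNA, was itself listed at 0 in libraries of both genotypes. An exact 0 is therefore not read here as absence from the cells, and what caused the zeros was not tested.

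The low values fell on a grid. For genes of one length in one library the values were mostly whole multiples of one step, and the step shrank with gene length. At 81 nt a step was 5.05 and 4.28 TPM in the Stk40-/- libraries and 5.46 and 4.90 TPM in the wild-type libraries. At 134 nt it was 3.29 and 3.16 TPM in the Stk40-/- libraries and 3.68 and 3.30 TPM in the wild-type libraries. Among the 162 members of up to 150 nt, 421 of 446 values above 0 (94.4%) were whole steps within 0.02 of a step. The step of each length and library was fitted to values of short genes, these members among them. It was chosen to put most values on whole multiples, so this share describes the fit and does not test the grid. The median value was 3 steps, 272 values held 3 steps or fewer, and 46 held 10 or more. The whole set of these members summed to 510 and 555 steps in the Stk40-/- libraries and 436 and 434 steps in the wild-type libraries. No source used here says what a step stands for. TPM holds no sequencing depth, and no counting interval is given. Of the 36 members of up to 150 nt seen in 1 library, 17 stood at 1 step and 17 at 2 steps, and none was above 3.

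**Figure D2:**
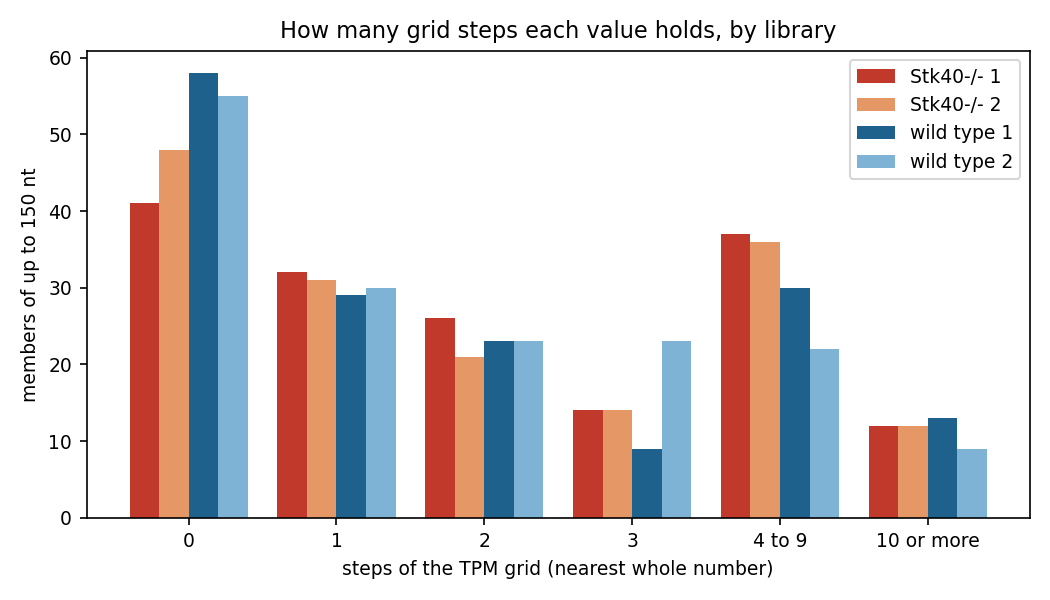
Number of members of up to 150 nt (162 in all) by how many grid steps their value holds, for each Stk40-/- and each wild-type library. Values at 0 are the largest class in every library (41 and 48 members in the Stk40-/- libraries, 58 and 55 in the wild-type libraries), and 10 or more steps were reached by 12 and 12 members in the Stk40-/- libraries and by 13 and 9 in the wild-type libraries.

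The threshold itself passes through this grid. Just above it stood Gm24958 with 4.21 TPM in Stk40-/- library 1 and Gm24920 with 4.28 TPM in Stk40-/- library 2, each at 0 in the other 3 libraries. Just below it stood Gm23300 with 3.86 TPM in wild-type library 1 and Gm23315 with 3.84 TPM in wild-type library 2, again at 0 elsewhere. In each of these 4 genes the whole level is 1 step in 1 library. Of the 1379 rows under 1 TPM, 1267 were at 0 in all libraries and 112 were above 0 in at least 1.

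Wild-type library 2 is rich in some other short structured RNAs, but not in all. Genes of type snRNA summed to 548 and 540 TPM in the Stk40-/- libraries and to 571 and 657 TPM in the wild-type libraries. Mitochondrial transfer RNAs summed to 668 and 650 TPM in the Stk40-/- libraries and to 647 and 543 TPM in the wild-type libraries. Rn7sk, the RNA that holds the elongation factor P-TEFb inactive, had 281 and 411 TPM in the Stk40-/- libraries and 381 and 5859 TPM in the wild-type libraries. Rn7s1, the RNA of the signal recognition particle, had 157 and 531 TPM in the Stk40-/- libraries and 365 and 10739 TPM in the wild-type libraries. The members as a whole did not show that excess, since their sum in wild-type library 2, 2344 TPM, lies within the range of the other libraries. It differed by length. Members over 200 nt (13 genes) summed to 116 and 156 TPM in the Stk40-/- libraries and to 136 and 475 TPM in the wild-type libraries, while the 167 shorter ones summed to 2173 and 2226 TPM in the Stk40-/- libraries and to 2078 and 1869 TPM in the wild-type libraries. Wild-type library 2 was thus the highest library for the long members and the lowest for the short ones. It was the highest library for 8 of the 13 long members and for 33 of the 167 shorter ones. Library richness in some short RNAs and RNA length move together here, and their part in the result was not tested.

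**Figure D3:**
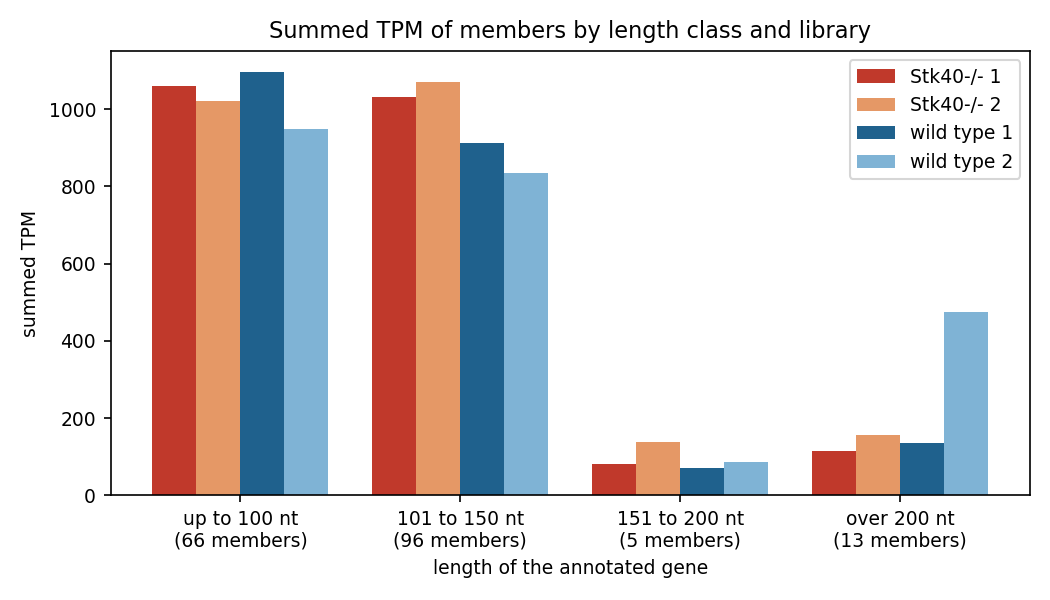
Summed TPM of members in 4 length classes, with 1 bar for each Stk40-/- library and each wild-type library. In the classes of up to 100 nt and of 101 to 150 nt wild-type library 2 is the lowest bar (949 and 834 TPM), and among members over 200 nt it is the highest (475 TPM).

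Most of that excess was Scarna2, a scaRNA that in human has its own transcription unit. It was listed at 0 and had 6.13 TPM in the Stk40-/- libraries, and had 5.22 and 223 TPM in the wild-type libraries. A single library holds nearly all of its level. Without Scarna2 the long members summed to 116 and 150.2 TPM in the Stk40-/- libraries and to 131 and 252 TPM in the wild-type libraries, with wild-type library 2 still highest. Scarna13, in an intron of Snhg10 (a long noncoding RNA), had 16.4 and 7.87 TPM in the Stk40-/- libraries and 46.1 TPM in wild-type library 2, and was listed at 0 in wild-type library 1. Gm22009, a 343-nt row in an intron of Kpna4 (an importin), was listed at 0 in both Stk40-/- libraries and had 5.98 and 31.6 TPM in the wild-type libraries. Scarna10, which reaches into an exon of Ncapd2 (a condensin subunit), was listed at 0 and had 9.10 TPM in the Stk40-/- libraries, and was listed at 0 and had 17.8 TPM in the wild-type libraries.

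The pattern was not shared by all long members. Scarna6, 265 nt, in an intron of Atg16l1 (an autophagy protein), had 12.6 and 12.1 TPM in the Stk40-/- libraries and was listed at 0 in both wild-type libraries. Gm24119, 246 nt, in an intron of the mitochondrial phosphate carrier gene Slc25a3, had 8.91 and 13.2 TPM in the Stk40-/- libraries and 13.98 and 4.30 TPM in the wild-type libraries. The 6 members with a Scarna name together had 34.2 and 35.2 TPM in the Stk40-/- libraries and 5.22 and 294 TPM in the wild-type libraries. Wild-type library 2 lies far above the others, and without it the remaining wild-type library is below both Stk40-/- libraries.

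Wild-type library 2 also lacked members that the other libraries had. Snord89, a box C/D RNA in an intron of Gm15832, had 19.4 and 17.8 TPM in the Stk40-/- libraries and 44.0 TPM in wild-type library 1, and was listed at 0 in wild-type library 2. In TPM, Gm24564 fell further, from 58.7 in wild-type library 1 to 10.9 in library 2. The sequence of Snord89 is shown because its loss between these libraries is the largest on the log2(TPM + 1) scale. It lies at chr1:39548745-39548854 on the minus strand of GRCm38 and has both boxes, shown here in capitals.
Snord89: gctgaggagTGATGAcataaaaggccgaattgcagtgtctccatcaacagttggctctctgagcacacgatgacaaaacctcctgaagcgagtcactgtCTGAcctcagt
Gm22661, in an intron of Zbed3, had 9.87 and 9.49 TPM in the Stk40-/- libraries and 25.8 TPM in wild-type library 1, and was listed at 0 in wild-type library 2. Snora62, in an intron of Rpsa (a ribosomal protein gene), had 7.21 and 7.28 TPM in the Stk40-/- libraries and 16.2 TPM in wild-type library 1, and was listed at 0 in wild-type library 2. In all, 11 members were at 0 in wild-type library 2 alone, 13 in wild-type library 1 alone, and 6 in each Stk40-/- library alone. A zero in 1 library against 3 libraries with values was therefore seen in every library.

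Between the libraries of 1 genotype the members moved more than most genes. A difference of at least 2-fold on the log2(TPM + 1) scale between wild-type library 2 and library 1 was found for 97 members (53.9%), against 10.8% of all 15739 genes tested. Between Stk40-/- library 2 and library 1 it was found for 99 members (55.0%), against 8.62% of all genes tested. These shares include members that passed the threshold through 1 library alone, whose difference within that genotype comes with the choice. Zeros are not needed for such a difference. Of the 67 members above 0 everywhere, 29 had it between the Stk40-/- libraries and 22 between the wild-type libraries. Their median absolute difference was 0.83 between the Stk40-/- libraries and 0.66 between the wild-type libraries. Over all genes tested, which were not matched to the members in level, it was 0.20 and 0.22. The direction was mixed, with 44 members higher and 55 lower in Stk40-/- library 2 than in library 1, and 52 higher and 45 lower in wild-type library 2 than in library 1 (a difference of 2-fold or more upward was found for 4.89% of all genes tested). Pearson's r of log2(TPM + 1) across the 180 members was 0.52 between the Stk40-/- libraries and 0.52 between the wild-type libraries, and lay between 0.41 and 0.60 for the 4 pairs of a Stk40-/- with a wild-type library. These correlations are across genes, which are not independent replicates, and the range between genotypes encloses the values within them.

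**Figure D4:**
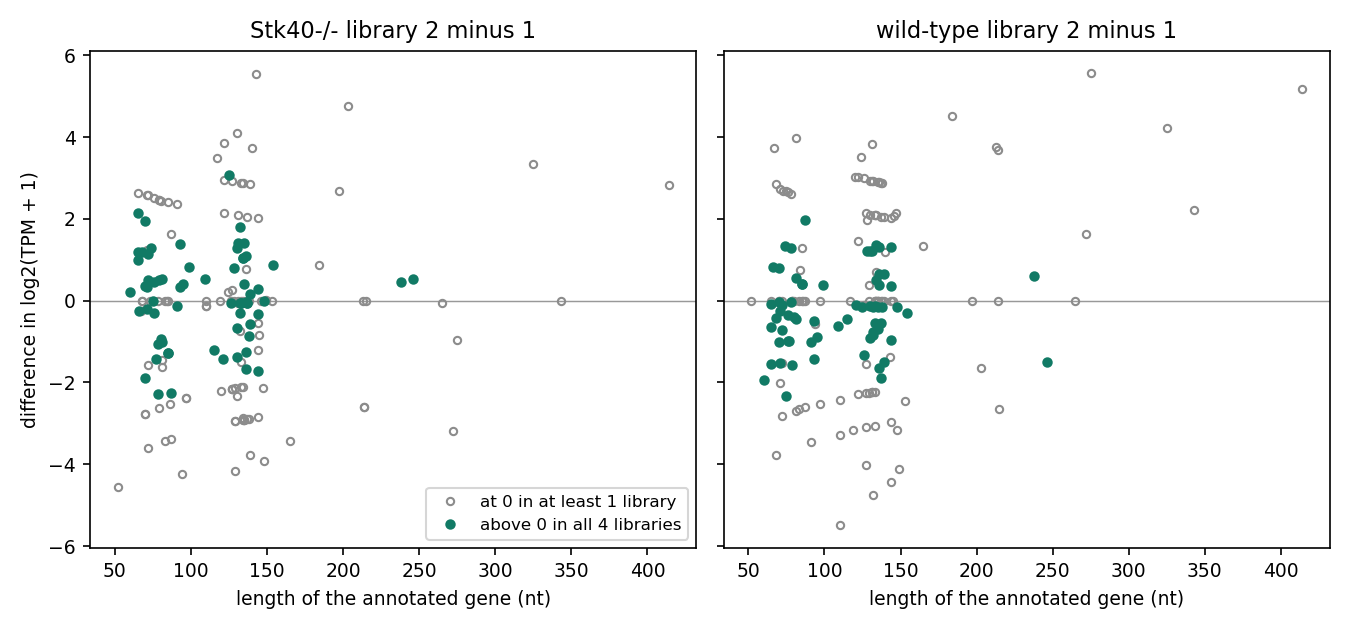
Difference in log2(TPM + 1) between library 2 and library 1 of the Stk40-/- cells (left) and of the wild-type cells (right) against gene length, 1 point per member. Filled points are above 0 in all 4 libraries; differences reach several log2 units at short lengths in both genotypes, and in the wild-type panel the 5 longest members lie above 0.

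Of the targeted gene itself, Stk40, 3.54 and 3.17 TPM were listed in the Stk40-/- libraries and 28.9 and 39.9 TPM in the wild-type libraries. Of the mesoderm markers, T (Brachyury) had 356 and 217 TPM in the Stk40-/- libraries and 1025 and 535 TPM in the wild-type libraries, while Mesp1 and Kdr were at or near 0 in all 4. What part such differences in cell state have in the values below was not tested. In bulk samples fewer cells of a type and less RNA per cell cannot be told apart.

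No member passed the test between Stk40-/- and wild-type libraries. Of the 180 members, limma called 0 at an adjusted p under 0.05, as it called 0 of all 15739 genes tested (0%), and the smallest adjusted p was 0.139 among members and 0.114 among all genes. Stk40 itself was among the genes not called, so a missing call does not show that a gene is unchanged. At an unadjusted p under 0.05 there were 25 members (13.9%), 13 higher and 12 lower in the Stk40-/- libraries, against 11.0% of all genes tested. In 12 of these 25 a whole genotype was listed at 0, so they passed the threshold through the other genotype alone. The values of both genotypes were apart in 36 members (20%), 19 higher and 17 lower in the Stk40-/- libraries, against 44.0% of all genes tested (27.5% higher and 16.6% lower). Leaving out any 1 library leaves a lone library on one side and gives 86 to 97 such members. A member with a 0 in both genotypes cannot have separate values, so the share of members is not like that of all genes. Of the 67 members above 0 in every library, 8 had separate values that were higher and 10 lower in the Stk40-/- libraries. The median log2 fold change was 0.09 over all members, -0.02 over the 67 above 0 in every library (33 positive, 34 negative) and 0.065 over all genes tested. The median absolute log2 fold change was 0.34 over the 67 members and 0.23 over all genes tested.

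**Figure D5:**
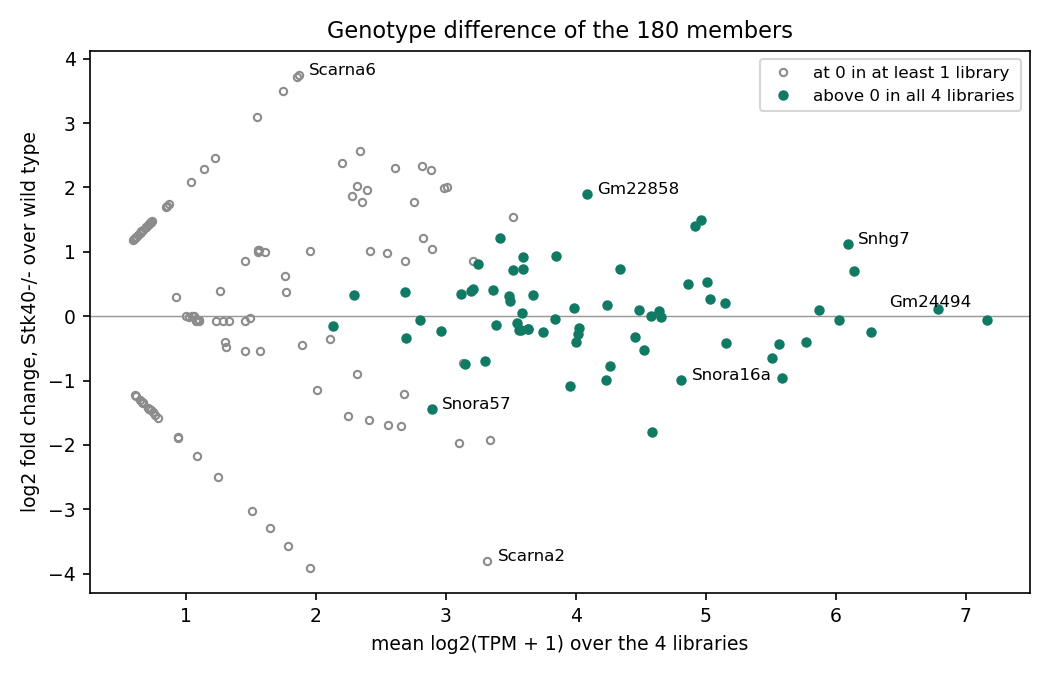
Log2 fold change of each of the 180 members, Stk40-/- over wild type, on the log2(TPM + 1) scale against the mean log2(TPM + 1). Filled points (67 members above 0 in all 4 libraries) lie on both sides of 0, and the open points along the slanted edges are members seen in 1 library or 1 genotype only; no point passed the test (smallest limma adjusted p = 0.139).

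Among members above 0 everywhere with an unadjusted p under 0.05, the row named Snhg7 had the highest level. It had 94.6 and 105 TPM in the Stk40-/- libraries and 36.0 and 56.8 TPM in the wild-type libraries. Both Stk40-/- values lie above both wild-type values (log2 fold change 1.12 ± 0.24, limma adjusted p = 0.342). The Snora43 row that it overlaps was at 0 in all 4 libraries, and no source used here says how the counting divided reads between them. Gm24610, in an intron of Mfsd13a, had 42.7 and 61.9 TPM in the Stk40-/- libraries and 22.0 and 13.9 TPM in the wild-type libraries (log2 fold change 1.5 ± 0.3, limma adjusted p = 0.312). A copy, Gm24412, is at least 90% identical to it. Gm22858, in an intron of Wdr43, had 27.0 and 37.6 TPM in the Stk40-/- libraries and 11.3 and 5.26 TPM in the wild-type libraries (log2 fold change 1.90 ± 0.39, limma adjusted p = 0.328). In steps of the grid, Gm22858 held 5 and 8 in the Stk40-/- libraries and 2 and 1 in the wild-type libraries. Snord53, in another intron of the same host gene, had overlapping genotypes, and Wdr43 itself had 110 and 101 TPM in the Stk40-/- libraries and 90.4 and 87.4 TPM in the wild-type libraries.

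A smaller difference of the same direction was seen for Gm25835, in an intron of Eif4a1 (the RNA helicase of translation initiation). It had 12.4 and 15.2 TPM in the Stk40-/- libraries and 6.89 and 9.07 TPM in the wild-type libraries (log2 fold change 0.72 ± 0.21, limma adjusted p = 0.407). In steps of the grid, Gm25835 held 4 and 5 in the Stk40-/- libraries and 2 and 3 in the wild-type libraries. Gm26394, opposite an intron of Top2a (a topoisomerase of dividing cells), had 73.8 and 31.2 TPM in the Stk40-/- libraries and 20.8 and 15.0 TPM in the wild-type libraries. Its Stk40-/- values are further from each other than the lower of them is from the wild-type values.

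Among members lower in the Stk40-/- libraries, Snora57, a box H/ACA RNA opposite an intron of Lbhd1, had the smallest p of the 67. It had 3.52 and 3.47 TPM in the Stk40-/- libraries and 11.9 and 10.7 TPM in the wild-type libraries (log2 fold change -1.45 ± 0.19, limma adjusted p = 0.265), and a copy, Gm26132, is at least 90% identical to it. Its Stk40-/- values are low on the grid: for Gm23482, a row of 122 nt, 3.52 TPM was 1 step in Stk40-/- library 1. Snora16a, which lies within an exon of the long noncoding RNA Snhg12, had 19.3 and 18.6 TPM in the Stk40-/- libraries and 46.8 and 31.6 TPM in the wild-type libraries (log2 fold change -0.98 ± 0.22, limma adjusted p = 0.350). Snhg12 itself had 101 and 65.8 TPM in the Stk40-/- libraries and 113 and 73.1 TPM in the wild-type libraries, with overlapping genotypes.

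Snord49a, a box C/D RNA in an intron of 2410006H16Rik, is shown with both boxes in capitals (chr11:62603450-62603521, plus strand, GRCm38). Its level was the highest among the members whose Stk40-/- values both lie below both wild-type values.
Snord49a: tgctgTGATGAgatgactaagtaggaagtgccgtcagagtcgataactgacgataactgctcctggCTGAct
It had 28.0 and 40.2 TPM in the Stk40-/- libraries and 85.3 and 51.1 TPM in the wild-type libraries (log2 fold change -0.96 ± 0.32, limma adjusted p = 0.438). Snord49b, from the same host, had 11.2 TPM and was listed at 0 in the Stk40-/- libraries, and had 18.3 and 5.68 TPM in the wild-type libraries. The 3 members in that host summed to 39.2 and 45.2 TPM in the Stk40-/- libraries and to 104 and 56.8 TPM in the wild-type libraries, so the Stk40-/- sums lie below both wild-type sums. Gm22571, in an intron of Rpl4, had 34.9 and 45.2 TPM in the Stk40-/- libraries and 54.8 and 53.3 TPM in the wild-type libraries. Gm22270, in an intron of Rpl5, had 13.2 and 12.7 TPM in the Stk40-/- libraries and 18.4 and 16.5 TPM in the wild-type libraries. Both had separate genotypes and neither passed the test (limma adjusted p = 0.447 and 0.444). In steps of the grid, Gm22571 held 6 and 9 in the Stk40-/- libraries and 9 and 9 in the wild-type libraries. Its Stk40-/- library 2 thus differs from the wild-type libraries only by the size of a step. Gm22270 held 4 and 4 steps in the Stk40-/- libraries and 5 and 5 in the wild-type libraries.

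In 12 members the genotypes were separate because 1 of them was at 0, 6 in each direction. These members passed the threshold through the other genotype alone, so their separation and their p come in part with the choice. Among them Scarna6, above, had the smallest p of all members (limma adjusted p = 0.139). Gm25291, in an intron of Sec24a, had 9.27 and 6.07 TPM in the Stk40-/- libraries and was listed at 0 in both wild-type libraries. On the other side, Gm22300, opposite an intron of Tmem245, was listed at 0 in both Stk40-/- libraries and had 11.3 and 10.4 TPM in the wild-type libraries. Snord11, in an intron of Nop58, was listed at 0 in both Stk40-/- libraries and had 5.28 and 9.47 TPM in the wild-type libraries. Snord71, in an intron of Ap1g1, was listed at 0 in both Stk40-/- libraries and had 5.28 and 14.2 TPM in the wild-type libraries. The levels of Gm25291, Gm22300, Snord11 and Snord71 are 1 to 3 steps of the grid in each library that has them. Gm24507, in an intron of Tmem167, reached further in 1 library, with 29.6 and 3.17 TPM in the Stk40-/- libraries and a listing of 0 in both wild-type libraries.

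Rows that overlap each other can trade reads. Gm22711 names a row of 135 nt (chr11:106501243-106501377, plus strand, GRCm38) and a row of 133 nt that lies within it, and the longer sequence is shown with the 2 bases that the shorter one lacks in capitals.
Gm22711: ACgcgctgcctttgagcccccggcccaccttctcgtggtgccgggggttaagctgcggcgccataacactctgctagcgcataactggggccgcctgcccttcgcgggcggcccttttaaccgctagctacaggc
The longer row had 12.3 and 11.97 TPM in the Stk40-/- libraries and was listed at 0 in both wild-type libraries, while the shorter row had 14.05 and 13.35 TPM in the Stk40-/- libraries and 29.5 and 19.8 TPM in the wild-type libraries. Each row alone separates the genotypes, in opposite directions. Summed, they had 26.3 and 25.3 TPM in the Stk40-/- libraries and 29.5 and 19.8 TPM in the wild-type libraries, with overlapping genotypes. Of the 180 members, 50 were at least 90% identical to another row and 30 at least 95%. The pair Gm22192 and Gm25632, both in Prrc2b, has one sequence and the same values, 17.1 and 6.42 TPM in the Stk40-/- libraries and 10.6 and 14.2 TPM in the wild-type libraries, so it is 1 measurement listed under both names.
Gm22192: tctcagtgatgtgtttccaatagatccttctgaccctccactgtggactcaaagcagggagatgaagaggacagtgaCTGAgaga
Its sequence is given as that of Gm22192 (chr2:32221970-32222054, plus strand, GRCm38), with the D box in capitals.

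Rian, an imprinted long noncoding RNA expressed from the maternal chromosome 12, is the host of a tandem family of box C/D snoRNAs. The table has 13 rows inside it, of which 9 were at 0 in all libraries and 4 were members. The members Gm24564 (chr12:109631074-109631148), DQ267102 (chr12:109656345-109656416) and Gm25357 (chr12:109657125-109657196), all on the plus strand of GRCm38, are shown because their likeness bears on whether their reads can be kept apart; capitals mark the C and D boxes found.
Gm24564: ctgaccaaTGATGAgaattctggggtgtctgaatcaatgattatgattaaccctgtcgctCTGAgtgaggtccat
DQ267102: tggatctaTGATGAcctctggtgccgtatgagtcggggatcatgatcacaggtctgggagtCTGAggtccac
Gm25357: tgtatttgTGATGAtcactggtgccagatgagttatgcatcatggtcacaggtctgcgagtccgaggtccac
Identity was 61.3% between Gm24564 and DQ267102, 60.0% between Gm24564 and Gm25357, and 80.6% between DQ267102 and Gm25357. Gm24564 had 37.9 and 37.6 TPM in the Stk40-/- libraries and 58.7 and 10.9 TPM in the wild-type libraries. DQ267102 had 22.4 and 50.2 TPM in the Stk40-/- libraries and 24.4 and 22.7 TPM in the wild-type libraries. The 4 members together had 88.8 and 108 TPM in the Stk40-/- libraries and 107 and 39.3 TPM in the wild-type libraries. The low sum is again wild-type library 2, and the genotypes overlap. Rian itself had 832 and 868 TPM in the Stk40-/- libraries and 734 and 705 TPM in the wild-type libraries (log2 fold change 0.24, limma adjusted p = 0.373).

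A second imprinted cluster, in Snhg14 on chromosome 7, held 208 rows and 1 member, Gm25648, which was at 4.55 TPM in Stk40-/- library 2 and at 0 elsewhere. In wild-type library 2, 62 rows of 94 nt in this cluster shared a single value of 0.0669 TPM each, 4.15 TPM in all, next to the 4.31 TPM of 1 step at that length. They have 21 different sequences among them. These rows make up most of the surplus of rows above 0 in that library: rows above 0 numbered 142 and 135 in the Stk40-/- libraries and 123 and 202 in the wild-type libraries, and 140 in wild-type library 2 without them. None of them reached the mean of 1 TPM.

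The sums of members that share a host gene varied to different degrees. In Nop58, a core protein gene of the box C/D particle that itself hosts snoRNAs, the 3 members summed to 38.8 and 8.44 TPM in the Stk40-/- libraries and to 15.8 and 32.4 TPM in the wild-type libraries, while Nop58 had 495 and 516 TPM in the Stk40-/- libraries and 453 and 404 TPM in the wild-type libraries. In Gnl3, the members Snord19, Snord69 and Gm24916 summed to 96.4 and 74.1 TPM in the Stk40-/- libraries and to 101 and 78.2 TPM in the wild-type libraries, while Gnl3 had 207 and 190.2 TPM in the Stk40-/- libraries and 184 and 139.7 TPM in the wild-type libraries. In Rpl4, the 3 members summed to 43.1 and 60.5 TPM in the Stk40-/- libraries and to 76.8 and 65.8 TPM in the wild-type libraries. In Khdc4, they summed to 19.9 and 22.1 TPM in the Stk40-/- libraries and to 25.4 and 23.1 TPM in the wild-type libraries. In Rpl17, the 3 members summed to 25.2 and 57.2 TPM in the Stk40-/- libraries and to 47.9 and 31.7 TPM in the wild-type libraries, while Rpl17 had 1358 and 1369 TPM in the Stk40-/- libraries and 1369 and 1350 TPM in the wild-type libraries. The member sums differed by more than 2-fold between libraries in Nop58 and Rpl17 and by less in Gnl3, Rpl4 and Khdc4.

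The protein genes that assemble and use these RNAs were abundant and none was called. Of the 4 core proteins of the box C/D particle, Fbl (fibrillarin, the methyltransferase) had 298 and 316 TPM in the Stk40-/- libraries and 313 and 299 TPM in the wild-type libraries. Snu13, which binds the box C/D fold, had 310 and 302 TPM in the Stk40-/- libraries and 314 and 299 TPM in the wild-type libraries. Nop56 had 376 and 336 TPM in the Stk40-/- libraries and 325 and 328 TPM in the wild-type libraries. With Nop58 it is one of the 2 core genes whose Stk40-/- values lie above both wild-type values (limma adjusted p = 0.619 for Nop56 and 0.439 for Nop58). Of the 4 core proteins of the box H/ACA particle, Dkc1 (dyskerin, the pseudouridine synthase) had 181 and 159 TPM in the Stk40-/- libraries and 160.0 and 137 TPM in the wild-type libraries. Nhp2 had 423 and 418 TPM in the Stk40-/- libraries and 397 and 420 TPM in the wild-type libraries. Gar1 had 127 and 112 TPM in the Stk40-/- libraries and 109.9 and 114 TPM in the wild-type libraries. Nop10 had 57.9 and 73.4 TPM in the Stk40-/- libraries and 76.0 and 79.8 TPM in the wild-type libraries. It is the only one of these 4 with separate genotypes (limma adjusted p = 0.578).

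The wider lists also had no call in either direction. Limma called 0 of 13 assembly factors, 0 of 9 tested genes of Cajal bodies and telomerase, 0 of 10 genes of RNA end processing, decay and lariat debranching, and 0 of 17 genes of ribosomal RNA transcription and U3 processing. It called 0 of 15 noncoding host genes, counted without the Snhg7 row described above, and 0 of 48 protein-coding host genes. At an unadjusted p under 0.05 these lists had 3, 0, 0, 2, 3 and 11 genes in the same order, against 11.0% of all genes tested. Naf1, which brings dyskerin to new box H/ACA RNAs, had 54.7 and 59.6 TPM in the Stk40-/- libraries and 40.4 and 47.5 TPM in the wild-type libraries (limma adjusted p = 0.441). Ncl (nucleolin) had 889 and 843 TPM in the Stk40-/- libraries and 717 and 566 TPM in the wild-type libraries (limma adjusted p = 0.407). Coil, the scaffold of Cajal bodies, had 38.1 and 36.0 TPM in the Stk40-/- libraries and 39.1 and 36.3 TPM in the wild-type libraries. Wrap53, which binds the CAB box, had 29.5 and 26.6 TPM in the Stk40-/- libraries and 30.4 and 29.0 TPM in the wild-type libraries.

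The smallest p among host genes was that of Snhg3, a noncoding RNA that hosts the Snora73 RNAs, which take part in ribosomal RNA processing. It had 32.7 and 30.2 TPM in the Stk40-/- libraries and 61.0 and 67.6 TPM in the wild-type libraries. Both Stk40-/- values lie below both wild-type values (log2 fold change -1.01 ± 0.11, limma adjusted p = 0.214). Snora73a and Snora73b were listed at 0 in every library but wild-type library 2, where each had 3.76 TPM, and so lie just under the threshold of the members.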

How the data were processed

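RNA sequencing values of 2 Stk40-/- and 2 wild-type mouse libraries were used, grouped by their titles. The deposited values were TPM per gene, each column summing to 1000000. The tools, per the submitters' processing notes, were CASAVA 1.7 and Salmon 0.8.2, without settings. These notes give the human build hg38 for a table of mouse Ensembl IDs, and the mouse annotation behind it was not named. Per the labels, poly(A)-enriched RNA was read on either of 2 instruments with different read lengths, without a record of the instrument used for each, so no batch term could be fitted. Salmon divides reads among similar transcripts, which makes near-identical and nested rows less certain. No sample column was left out (0 columns).

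Positions, lengths, hosts and sequences are those of GENCODE vM21 (GRCm38) for the same Ensembl IDs; 148 of the 180 members also matched a RefSeq gene. All 15739 genes whose mean reached 1 TPM entered 1 fit of log2(TPM + 1) in limma 3.58.1, run under R 4.3.3 (2 against 2 libraries, Benjamini-Hochberg adjustment, threshold 0.05), a step tested on simulated data. A log2 fold change on this scale understates the change of low genes. TPM keeps no depth, so no counting interval or limit of detection is given. Fold changes are given only for genes above 0 in all libraries. Genes were named by rule: the highest per class, the smallest p per direction, the largest differences between the wild-type libraries, those next to the threshold, the smallest ranges, members sharing a host, and in each list the smallest p with all core proteins. The members and lists were chosen with earlier results of these data known. Alternatives were other pseudocounts (0.1 and 0.01), other minimum levels (above 0 and 5 TPM), rescaling to or centring on protein-coding genes, leaving out each library, and a replicate block.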

Additional observations from a re-analysis of the deposited data

How the results depend on the processing

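Limma called 0 members under every alternative, with the smallest adjusted p between 0.0898 (without wild-type library 1) and 0.415 (mean above 0 TPM). The count of members with separate genotypes was 36 to 38 under other pseudocounts, a mean above 0 TPM or rescaling, 29 with a minimum of 5 TPM, and 86 to 97 with 1 library left out, where the lone library stands for its genotype. Centring on the median of protein-coding genes gave 54, 19 higher and 35 lower, against 19 higher and 17 lower; of the 18 members separate only then, 16 had a 0 in both genotypes, and centring makes zeros unequal between libraries. The median log2 fold change of members was -0.05 with a mean above 0 TPM (292 rows), 0.10 with at least 5 TPM, 0.06 after rescaling, 0.01 after centring, and 0.07 to 0.15 with 1 library left out. The median difference between wild-type library 2 and library 1 was 0.0 as reported, 0.09 with a mean above 0 TPM, -0.14 with at least 5 TPM and 0.06 after centring; the cause was not tested. Members that reached a mean of 5 TPM summed to 2099 and 2226 in the Stk40-/- libraries and 2082 and 2155 in the wild-type libraries, and all members after rescaling to 2443 and 2548 in the Stk40-/- libraries and 2376 and 2608 in the wild-type libraries. Of 18 single fold changes under 11 alternatives each, 191 of 198 values kept their sign and 0 passed the threshold. The 7 that turned were near 0: with 1 library left out, Rnu73b (range -0.03 to 0.21) stood at -0.02 without Stk40-/- library 1 and -0.03 without wild-type library 2, Snord19 (-0.22 to 0.12) at 0.11 without Stk40-/- library 2 and 0.12 without wild-type library 1, Gm24494 (-0.34 to 0.21) at 0.20 without Stk40-/- library 1 and 0.21 without wild-type library 2, and Snord17 (-0.54 to 0.06) at 0.06 without wild-type library 2. Same-numbered libraries share only a number (the correlation of their deviations from the group means was 0.089), and with it as a replicate block 0 members were called and the median log2 fold change was 0.09. With 2 libraries a group and most values at 0 to 3 steps, small differences were not detectable. Large ones could also go uncalled. Stk40 itself was not called, at 3.54 and 3.17 TPM in the Stk40-/- libraries and 28.9 and 39.9 TPM in the wild-type libraries.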
